A study of Homo sapiens with 4 samples.

Results

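The 10 genes described here serve the supply of tubulin and the control of microtubules. They are TTC5, a factor of tubulin autoregulation, the tubulin folding cofactors TBCA, TBCB, TBCC, TBCD and TBCE, the stathmins STMN1 and STMN3, and the microtubule-associated proteins MAP4 and MAP1B. They were chosen by gene name from the 38558 genes of the deposited table. Each name had 1 entry, and all 10 reached 1 FPKM (fragments per kilobase of exon and per 1000000 fragments) in all 4 libraries. RNA came from SKOV3 and ES2, established human ovarian cancer cell lines that the labels mark as wild type. Cells received no drug or YY-15, for which the labels give a code name and no structure. The treated cells had YY-15 for 48 h, and the column headings give them a dose of 4 µM. The groups SKOV3 YY-15, SKOV3 control, ES2 YY-15 and ES2 control held 1 library each, so no difference below has a replicate check, a test or a p-value.

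Alpha- and beta-tubulin are folded by the chaperonin TRiC, which receives them from prefoldin, and are then joined into a dimer by the cofactors. TBCA and TBCD hold beta-tubulin, TBCB and TBCE hold alpha-tubulin, and TBCC releases the finished dimer from the TBCD and TBCE complex. Cells also adjust tubulin mRNA to the amount of free dimer. When dimers are in excess, TTC5 binds the start of a tubulin chain as it leaves the ribosome and, through SCAPER, brings in the CCR4-NOT deadenylase, after which the mRNA is degraded. Stathmins bind free dimers, while MAP4 and MAP1B bind and stabilise the polymer.

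TTC5 reads the first residues of tubulin, so the first codons of tubulin genes are shown beside that of a gene which is no tubulin. The first 24 coding bases, 5′ to 3′, come from GENCODE 29 transcripts, with the opening 12 bases in capitals.
TUBA1B, chromosome 12: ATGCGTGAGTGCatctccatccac
TUBB4B, chromosome 9: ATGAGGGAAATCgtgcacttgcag
TUBB2A, chromosome 6: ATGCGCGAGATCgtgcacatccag
STMN1, chromosome 1: ATGGCTTCTTCTgatatccaggtg
TUBA1A and TUBA1C open with the same 24 bases as TUBA1B. The sequences are a description of the annotation and not a measurement in these libraries.

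The estimated counts summed to between 62522202 and 67431058 per library, and between 11781 and 12850 genes reached 1 FPKM. The labels call both lines epithelial. Of 10 epithelial and ovarian carcinoma markers, 6 reached 1 FPKM in SKOV3 YY-15, 5 in SKOV3 control and 3 in each ES2 library, and their summed FPKM was 397, 564, 233 and 226 in SKOV3 YY-15, SKOV3 control, ES2 YY-15 and ES2 control. KRT7 and KRT18 stood between 97.7 and 153 FPKM in all 4 libraries, but EPCAM and CDH1 were listed at 0 in both ES2 libraries, and PAX8 was at 43.7 and 37.4 FPKM in SKOV3 against 0.0305 and 0.119 FPKM in ES2 (YY-15 and control libraries in that order). The summed FPKM of the 3 leukocyte markers in the table was at most 0.242. Of the endothelial markers, CDH5 was at 16.3 and 19.5 FPKM in ES2 YY-15 and control, with PECAM1 and VWF at or under 0.0501 FPKM in all 4 libraries. All 4 mesenchymal markers (VIM, CDH2, ZEB1 and FN1) reached 1 FPKM in every library, and their summed FPKM was 1128 in SKOV3 YY-15, 979 in SKOV3 control, 1334 in ES2 YY-15 and 1366 in ES2 control. Among them FN1 was at 342 FPKM in SKOV3 YY-15 and 169.9 FPKM in SKOV3 control, and at 122 FPKM in ES2 YY-15 and 138 FPKM in ES2 control. The part of other cell types, and of these markers, in the results was not tested.

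Ratios are log2((first FPKM + 1)/(second FPKM + 1)), and a gene is counted as 2-fold different when the log2 value reaches 1 in either direction. The added 1 understates the difference of genes with low FPKM, such as TTC5 and TBCE. Brackets hold exact Clopper-Pearson 95% intervals of the log2 ratio of library shares, computed from the estimated counts without the added 1. They cover counting error only. In bulk RNA, less of a transcript in every cell and fewer cells that hold it cannot be told apart.

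TTC5 was the lowest of the 10 genes in every library. The gene (ENSG00000136319) lies on chromosome 14 at 20256558 to 20305953, minus strand, in GRCh38 coordinates. It stood at 1.22 FPKM in SKOV3 YY-15, 1.36 FPKM in SKOV3 control, 1.74 FPKM in ES2 YY-15 and 1.56 FPKM in ES2 control, from 784, 940, 1193 and 1023 estimated counts. The YY-15 library was the lower of the pair in SKOV3 and the higher in ES2, by small amounts. The log2 ratio of YY-15 over control was -0.09 [-0.29 to -0.01] in SKOV3 and 0.10 [0.04 to 0.28] in ES2. A measured gene without a symbol in the table, ENSG00000258768, lies inside TTC5 on the same strand, so the TTC5 values are uncertain. With its counts added to TTC5 the ES2 log2 ratio was 0.06 with an interval of -0.06 to 0.18, which reaches 0, and the SKOV3 interval was -0.35 to -0.10. Corrected for the trend on length and GC content over all genes, the ES2 ratio of TTC5 was 0.24.

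Of the listed partners that link TTC5 to mRNA decay, SCAPER and 10 CCR4-NOT subunits, all 11 passed the filter of 1 FPKM in both comparisons. At least 2-fold differences numbered 0 in SKOV3, with a median log2 ratio of -0.06, and 0 in ES2, with a median of -0.10. CNOT11, the subunit through which SCAPER binds the deadenylase, was at 34.7 FPKM in SKOV3 YY-15 and 46.6 FPKM in SKOV3 control, a log2 ratio of -0.41 [-0.46 to -0.37]. In ES2 it was at 28.0 FPKM with YY-15 and 27.0 FPKM in the control (0.05). CNOT6, a catalytic subunit, had ratios of -0.34 in SKOV3 and -0.21 in ES2, and CNOT9 had -0.25 and 0.11. SCAPER was about as low as TTC5, at 1.18 FPKM in SKOV3 YY-15, 0.919 in SKOV3 control, 1.13 in ES2 YY-15 and 1.18 in ES2 control.

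**Figure D1:**
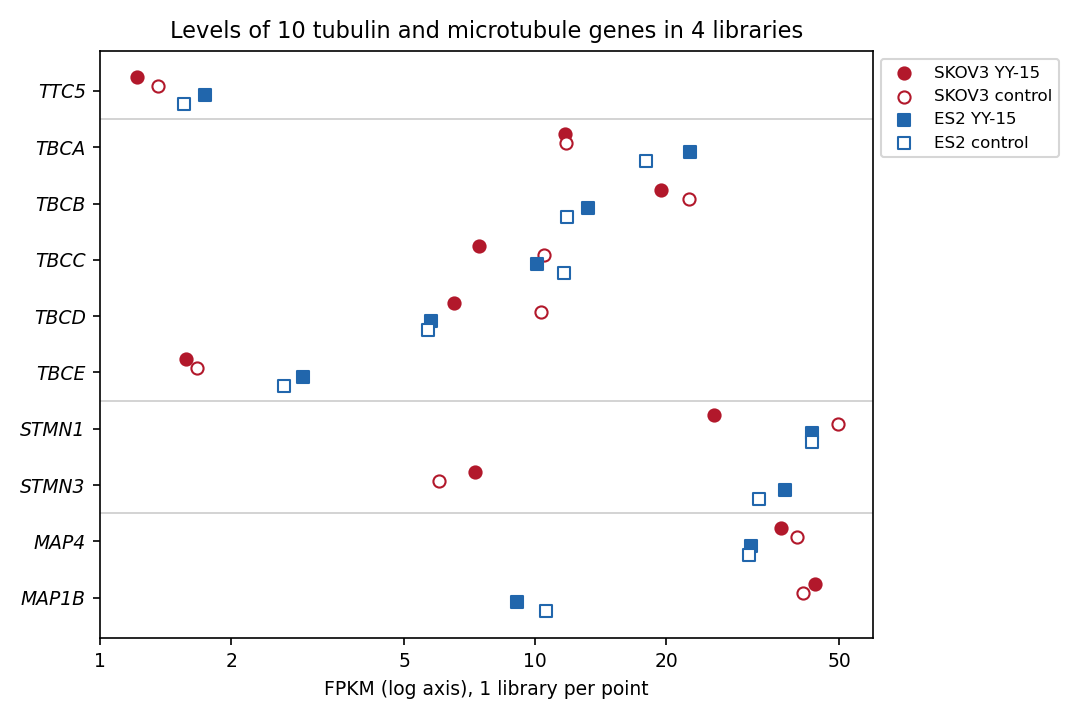
FPKM on a log axis of the 10 genes in SKOV3 YY-15, SKOV3 control, ES2 YY-15 and ES2 control, 1 library per point, with rules between the autoregulation factor, the folding cofactors, the stathmins and the microtubule-associated proteins. STMN1 and TBCD sit lower in SKOV3 YY-15 (25.7 and 6.49 FPKM) than in SKOV3 control (49.6 and 10.3 FPKM), and STMN3 and MAP1B separate the cell lines.

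The folding cofactors were unequal in SKOV3, with TBCD and TBCC lower in the YY-15 library and TBCA level. All 5 had SKOV3 ratios below 0, with a median of -0.20, where 47.3% of 13294 genes past the filter were below 0 and their median was 0.02. In ES2, 4 of 5 were above 0, with a median of 0.10, where 45.7% of 12341 genes were above 0 and their median was -0.02. The signs of TBCA and TBCE in SKOV3 and of TBCD in ES2 turned under at least 1 alternative, so these counts rest partly on values near 0. At least 2-fold differences numbered 0 of 5 in SKOV3, where 2.97% of all genes past the filter had one (1.66% higher and 1.31% lower). They numbered 0 of 5 in ES2, where 0.835% had one (0.348% higher and 0.486% lower).

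TBCD, the large cofactor that holds beta-tubulin (ENSG00000141556, chromosome 17, 82752042 to 82945914, plus strand), stood at 6.49 FPKM in SKOV3 YY-15, 10.3 FPKM in SKOV3 control, 5.78 FPKM in ES2 YY-15 and 5.68 FPKM in ES2 control. SKOV3 control was the high library and the other 3 lay close together. The log2 ratio was -0.59 [-0.70 to -0.62] in SKOV3, where 728 of the 13294 genes (5.48%) had a lower one, and 0.02 [-0.02 to 0.07] in ES2. The added 1 puts the SKOV3 value just outside its own interval. A same-strand gene inside TBCD, ENSG00000262663, reached 10% of its highest FPKM, which makes TBCD uncertain by the rule applied to all genes here. That gene held at most 35 estimated counts, and adding them gave -0.66 in SKOV3. On the opposite strand B3GNTL1 overlaps TBCD, with 14.1% of the TBCD counts in SKOV3 YY-15 and 6.84% in SKOV3 control. In ES2 it held 24.7% with YY-15 and 27.2% in the control. If counting ignored strand, the TBCD values are uncertain through B3GNTL1 too.

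TBCC, which completes the release of the dimer (ENSG00000124659, chromosome 6, 42744498 to 42746103, minus strand), stood at 7.41 FPKM in SKOV3 YY-15, 10.5 FPKM in SKOV3 control, 10.1 FPKM in ES2 YY-15 and 11.6 FPKM in ES2 control. It was the only cofactor with a ratio below 0 in both lines, -0.45 [-0.62 to -0.36] in SKOV3 and -0.19 [-0.32 to -0.09] in ES2. SKOV3 YY-15 was the lowest of the 4 libraries, and 9.93% of genes had a lower SKOV3 ratio.

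TBCB, which takes up alpha-tubulin (ENSG00000105254, chromosome 19, 36114289 to 36125945, plus strand), stood at 19.5 FPKM in SKOV3 YY-15, 22.6 FPKM in SKOV3 control, 13.2 FPKM in ES2 YY-15 and 11.8 FPKM in ES2 control. Both SKOV3 libraries were above both ES2 libraries. The ratio was -0.20 [-0.27 to -0.15] in SKOV3 and 0.15 [0.08 to 0.23] in ES2. Corrected for length and GC content, the ES2 value was 0.05. POLR2I overlaps TBCB on the opposite strand, with 11.8% to 22.9% of the TBCB counts. The TBCB values are uncertain if counting ignored strand.

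TBCA, a small chaperone of beta-tubulin (ENSG00000171530, chromosome 5, 77691166 to 77776339, minus strand), stood at 11.7 FPKM in SKOV3 YY-15, 11.8 FPKM in SKOV3 control, 22.7 FPKM in ES2 YY-15 and 18.0 FPKM in ES2 control. The SKOV3 libraries were level, with a ratio of -0.00 [-0.08 to 0.08], whose sign turned under 4 alternatives, the largest value being 0.04. In ES2 the YY-15 library was higher by 0.32 [0.28 to 0.40], the largest ES2 ratio in size among the 10 genes, and 479 of 12341 genes had a higher one.

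TBCE, which holds alpha-tubulin (ENSG00000284770, chromosome 1, 235367360 to 235452443, plus strand), stood at 1.58 FPKM in SKOV3 YY-15, 1.67 FPKM in SKOV3 control, 2.92 FPKM in ES2 YY-15 and 2.65 FPKM in ES2 control. The ratio was -0.05 [-0.17 to 0.04] in SKOV3 and 0.10 [0.06 to 0.22] in ES2. A second measured gene on the same strand, ENSG00000285053, overlaps it and has no symbol in the table, while GENCODE 29 names it TBCE too. That entry held 325 estimated counts in SKOV3 YY-15 and 117 in SKOV3 control, and 414 in ES2 YY-15 and 555 in ES2 control. Its log2 ratio of library shares was 1.58 in SKOV3 and -0.48 in ES2. With overlapping genes added, TBCE turned to 0.14 [0.04 to 0.24] in SKOV3 and stood at 0.03 [-0.04 to 0.11] in ES2. Reads of the overlapping entries cannot be assigned with certainty, so no direction is given for TBCE.

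Of the stathmins, STMN1 was the gene furthest from its control in SKOV3 and level in ES2, while STMN3 was slightly higher with YY-15 in both lines. STMN1, the main tubulin-sequestering protein of dividing cells (ENSG00000117632, chromosome 1, 25884181 to 25906991, minus strand), stood at 25.7 FPKM in SKOV3 YY-15, 49.6 FPKM in SKOV3 control, 43.3 FPKM in ES2 YY-15 and 43.4 FPKM in ES2 control. SKOV3 YY-15 was the low library and the other 3 lay between 43.3 and 49.6 FPKM. The SKOV3 ratio was -0.92 [-0.98 to -0.91], just short of 2-fold, and 222 of 13294 genes (1.67%) had a lower one. As a share of the library, STMN1 was 48.0% lower in SKOV3 YY-15. The ES2 ratio was -0.00 [-0.03 to 0.03]. Under the alternatives without a change of the fold size, STMN1 ranged from -0.95 to -0.83 in SKOV3 and from -0.05 to 0.02 in ES2.

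STMN3, a stathmin best known from neurons (ENSG00000197457, chromosome 20, 63639705 to 63653424, minus strand), stood at 7.27 FPKM in SKOV3 YY-15, 6.01 FPKM in SKOV3 control, 37.5 FPKM in ES2 YY-15 and 32.7 FPKM in ES2 control. Both ES2 libraries were far above both SKOV3 libraries. The ratio of YY-15 over control was 0.24 [0.17 to 0.39] in SKOV3 and 0.19 [0.15 to 0.24] in ES2. Corrected for length and GC content, the ES2 value was 0.11, and with a pseudocount of 5 the SKOV3 value was 0.16. The other stathmin genes on the list, STMN2 and STMN4, were not found under those names in the table used here.

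The promoters of the 3 genes with the lowest SKOV3 ratios are shown because these genes were lower together in that pair of libraries. The sequences are the 250 bases before a RefSeq start site (GRCh38.p14), 5′ to 3′ on the gene's strand, with motif letters in capitals. The letters searched, on both strands, were CCAAT, the GC box GGGCGG, the E2F letters TTTCCCGC, TTTCGCGC and TTTGGCGC, the cell cycle homology letters TTTGAA, the heat shock letters GAANNTTC and the ATF4 letters TGATGNAA.
STMN1, chr1:25906420-25906669, minus strand: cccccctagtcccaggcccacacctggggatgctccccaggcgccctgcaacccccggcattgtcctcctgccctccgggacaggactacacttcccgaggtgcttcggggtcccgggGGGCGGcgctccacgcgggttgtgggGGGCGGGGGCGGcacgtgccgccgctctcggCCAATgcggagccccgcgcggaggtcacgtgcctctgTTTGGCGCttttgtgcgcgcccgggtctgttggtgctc
TBCD, chr17:82751815-82752064, plus strand: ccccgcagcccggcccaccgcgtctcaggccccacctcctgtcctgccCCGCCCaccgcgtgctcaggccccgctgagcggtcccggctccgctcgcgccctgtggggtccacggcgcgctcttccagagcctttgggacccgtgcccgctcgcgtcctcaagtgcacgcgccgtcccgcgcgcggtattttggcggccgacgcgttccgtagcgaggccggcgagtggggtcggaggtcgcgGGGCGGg
TBCC, chr6:42746104-42746353, minus strand: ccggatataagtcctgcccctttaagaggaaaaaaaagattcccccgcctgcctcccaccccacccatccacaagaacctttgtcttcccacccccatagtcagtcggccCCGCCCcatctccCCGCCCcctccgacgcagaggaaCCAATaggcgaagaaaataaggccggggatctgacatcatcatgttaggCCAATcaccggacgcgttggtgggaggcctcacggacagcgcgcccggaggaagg
RefSeq gives 3 start windows for STMN1 and 2 for TBCD. The STMN1 window shown was picked after its motifs were seen, as the one that holds CCAAT, GC box and E2F letters together. The TBCD and TBCC windows shown are those nearest to the start of the main transcript. The 3 genes shown were picked by their ratios in these data, and a link of motifs to the ratios was not tested. E2F letters stood in 3 of the 17 windows of the 10 genes, against 2.74% of all 35116 windows of 300 bases. Those were 2 of the 3 STMN1 windows and 1 of the 2 TBCD windows. In the window nearest to the main transcript's start, 0 of the 10 genes held E2F letters, so the TBCD window shown does not. TBCC held 3 CCAAT motifs in its window of 300 bases, 2 of them in the bases shown. At least 1 CCAAT motif was in 6 of the 17 windows of the 10 genes, against 34.6% of all windows. In the nearest windows, 3 of the 10 genes held it. GC box letters were in 13 of the 17 windows of the 10 genes, against 45.0% of all windows. The nearest windows of 9 of the 10 genes held them, so they are not particular to the 3 genes shown. Heat shock letters were in 2 of the 17 windows, against 6.77% of all windows, and ATF4 letters in 1 of 17, against 3.62%. Cell cycle homology letters were in 3 of 17, against 15.2%. The table counts all transcripts of a gene together, so the start site in use was not measured.

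MAP4, the microtubule-associated protein of most non-neuronal cells (ENSG00000047849, chromosome 3, 47850690 to 48088841, minus strand), varied little over the 4 libraries. It stood at 36.8 FPKM in SKOV3 YY-15, 40.1 FPKM in SKOV3 control, 31.3 FPKM in ES2 YY-15 and 31.1 FPKM in ES2 control. The highest library was 1.29 times the lowest by FPKM, the smallest such ratio of the 10 genes. On the log2(FPKM + 1) scale the range was 0.36 for MAP4 and smaller, 0.31, for the low gene TTC5. The ratio was -0.12 [-0.14 to -0.10] in SKOV3 and 0.01 [-0.01 to 0.03] in ES2.

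MAP1B, which binds microtubules in growing neurites (ENSG00000131711, chromosome 5, 72107234 to 72209565, plus strand), stood at 44.0 FPKM in SKOV3 YY-15, 41.3 FPKM in SKOV3 control, 9.08 FPKM in ES2 YY-15 and 10.6 FPKM in ES2 control. Both SKOV3 libraries were far above both ES2 libraries, the reverse of STMN3. The ratio of YY-15 over control was 0.09 [0.08 to 0.12] in SKOV3 and -0.20 [-0.27 to -0.18] in ES2. Corrected for length and GC content, the ES2 value was -0.03. Its main transcript has 12036 bases and a GC content of 44.9%, against 2255 bases and 63.1% for STMN3. The correction removed the trends on both, and the part of each was not tested.

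**Figure D2:**
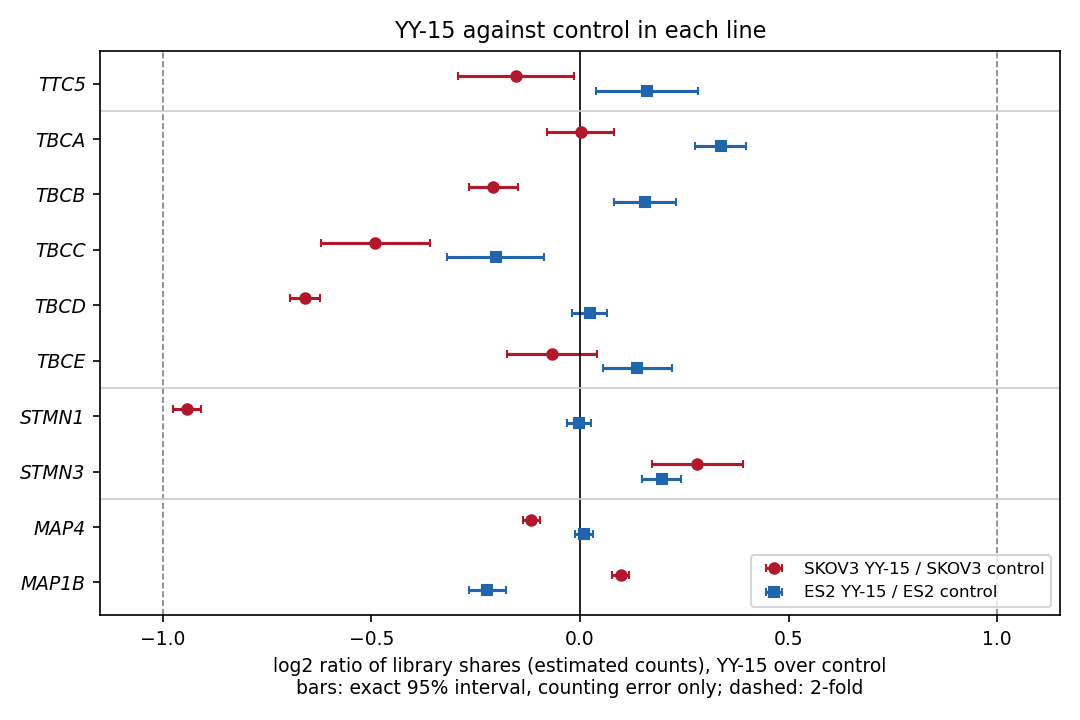
Log2 ratio of library shares from estimated counts, YY-15 over control, with exact 95% intervals for counting error, in SKOV3 (circles) and ES2 (squares) for the 10 genes. Dashed lines mark 2-fold. STMN1, TBCD and TBCC lie furthest left in SKOV3, at -0.94, -0.66 and -0.49, and none of the 20 points reaches 2-fold.

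In SKOV3, 0 of the 10 genes were at least 2-fold different, where 2.97% of all genes past the filter were (1.66% higher and 1.31% lower). In ES2 it was 0 of 10, where 0.835% of all genes were (0.348% higher and 0.486% lower). In SKOV3, 8 of 10 ratios were below 0, where 47.3% of all genes were, with a median of -0.10 against 0.02 over all genes. In ES2, 7 of 10 were above 0, where 45.7% of all genes were, with a median of 0.06 against -0.02. The signs of TBCA and TBCE in SKOV3 and of TBCD, STMN1 and MAP4 in ES2 turned under at least 1 alternative. The counts of signs thus rest partly on values near 0. At a size of 1.5-fold, 2 of 10 were lower in SKOV3 YY-15 (STMN1, and TBCD just past that size), where 5.69% of all genes were.

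**Figure D3:**
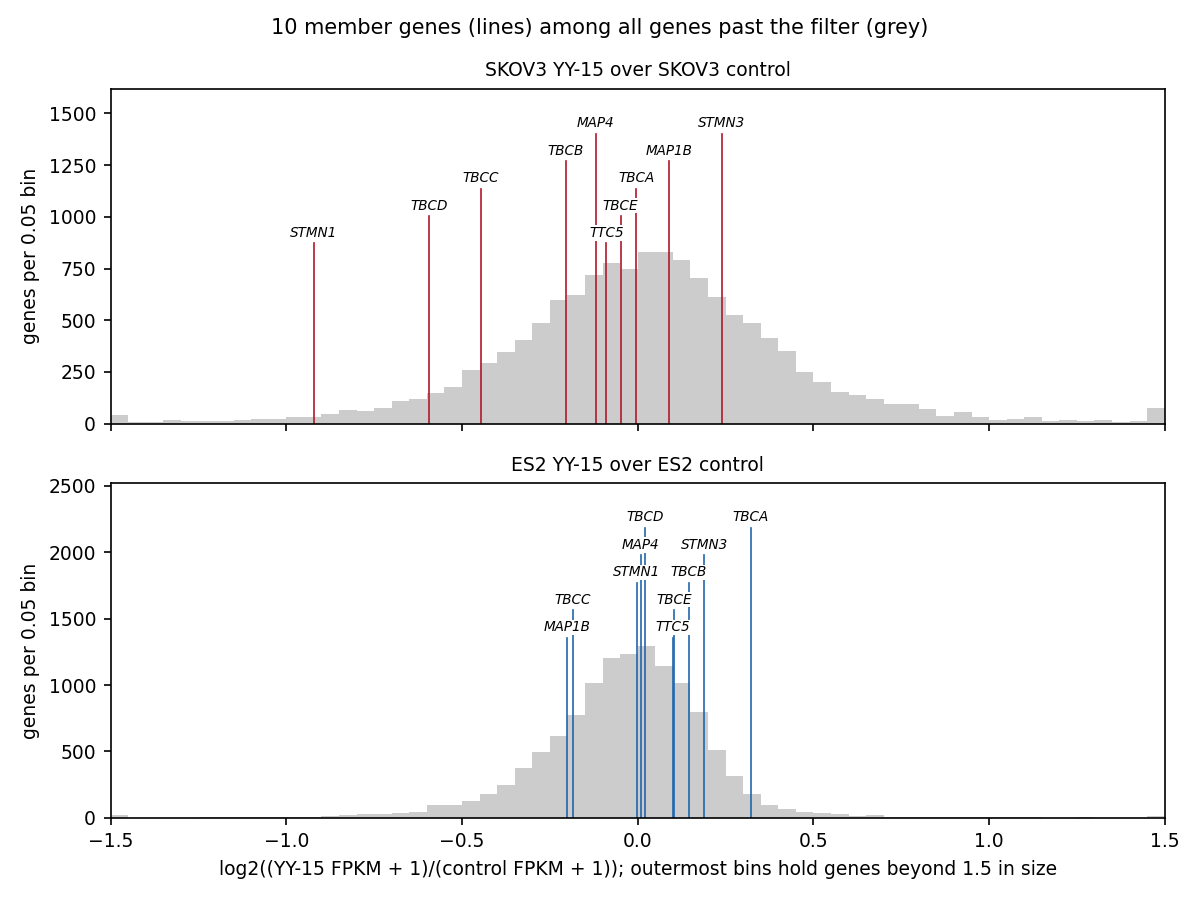
Log2((YY-15 FPKM + 1)/(control FPKM + 1)) of the 10 genes (lines) over the number of genes per bin of 0.05 among the 13294 SKOV3 and 12341 ES2 genes past the filter (grey). The outermost bins also hold the genes beyond 1.5 in size. STMN1, TBCD and TBCC lie in the left flank in SKOV3, and TBCA lies in the right flank in ES2.

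The SKOV3 ratio minus the ES2 ratio was below 0 for 8 of the 10 genes, with a median of -0.23, where 44.2% of 14607 genes were below 0 and their median was 0.06. It was lowest for STMN1 (-0.92) and TBCD (-0.61), followed by TBCB (-0.35), TBCA (-0.33) and TBCC (-0.26). It was above 0 for MAP1B (0.29) and STMN3 (0.05). The 8 genes include TBCE (-0.15), whose reads are uncertain and whose difference was 0.10 with overlapping genes added. The difference of STMN3 was -0.01 with a pseudocount of 5, so these counts rest partly on values near 0. In the SKOV3 minus ES2 difference 0 of 10 reached 2-fold, where 4.35% of 14607 genes did (2.63% higher and 1.72% lower). At 1.5-fold 2 of 10 were lower, STMN1 and TBCD, where 6.68% of all genes were. The difference between lines was not tested.

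Between the lines without drug, STMN3 and MAP1B stood apart in opposite directions. STMN3 was at 6.01 FPKM in SKOV3 control and 32.7 FPKM in ES2 control, a log2 ratio of -2.27 [-2.53 to -2.36]. MAP1B was at 41.3 FPKM in SKOV3 control and 10.6 FPKM in ES2 control, a log2 ratio of 1.87 [1.93 to 2.00]. These were the 2 of 10 genes at least 2-fold different between the controls, where 28.7% of 14024 genes were (16.2% higher in SKOV3 control and 12.5% lower), so the share of the 10 is not above that of all genes. TBCB (0.88) and TBCD (0.76) were higher in SKOV3 control, and TBCA (-0.57) lower. TBCE, whose reads are uncertain, was at -0.45, and its ratio of library shares with overlapping genes added was -0.88. At 1.5-fold, 3 of 10 were higher in SKOV3 control (MAP1B, TBCB and TBCD), where 27.9% of all genes were. MAP4 (0.36), STMN1 (0.19), TBCC (-0.14) and TTC5 (-0.12) were nearer to 0. With FPKM rescaled to TPM, which sums to 1000000 per library, TBCB passed 2-fold at 1.03. Of 4 neuronal markers, 1 reached 1 FPKM in each library (TUBB3, which is also a tubulin of the list below), and their summed FPKM was 6.22, 15.2, 14.8 and 11.9 in SKOV3 YY-15, SKOV3 control, ES2 YY-15 and ES2 control. RBFOX3 and SYP were at or under 0.121 FPKM in all 4 libraries, and SNAP25 was at 0.526 and 0.749 FPKM in ES2 YY-15 and control against 0 and 0.00275 FPKM in SKOV3 YY-15 and control. The part of such markers in the levels of STMN3 and MAP1B was not tested.

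With YY-15 in both lines, the SKOV3 over ES2 ratio was -2.22 [-2.44 to -2.28] for STMN3 and 2.16 [2.25 to 2.32] for MAP1B, the 2 of 10 genes at least 2-fold different, where 32.1% of 14056 genes were (19.3% higher in SKOV3 YY-15 and 12.7% lower). STMN1 stood at 25.7 FPKM in SKOV3 YY-15 and 43.3 FPKM in ES2 YY-15, a ratio of -0.73, against 0.19 between the controls. TBCA was at -0.90. TBCD was at 0.15, and its sign turned, to -0.06, when corrected for length and GC content. At 1.5-fold, 4 of 10 were lower in SKOV3 YY-15 (STMN3, TBCA, STMN1 and the uncertain TBCE), where 22.8% of all genes were. Each treated library is also part of the comparison within its line, so these ratios are not separate evidence. Centred on the median of all genes, TBCA passed 2-fold at -1.03.

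**Figure D4:**
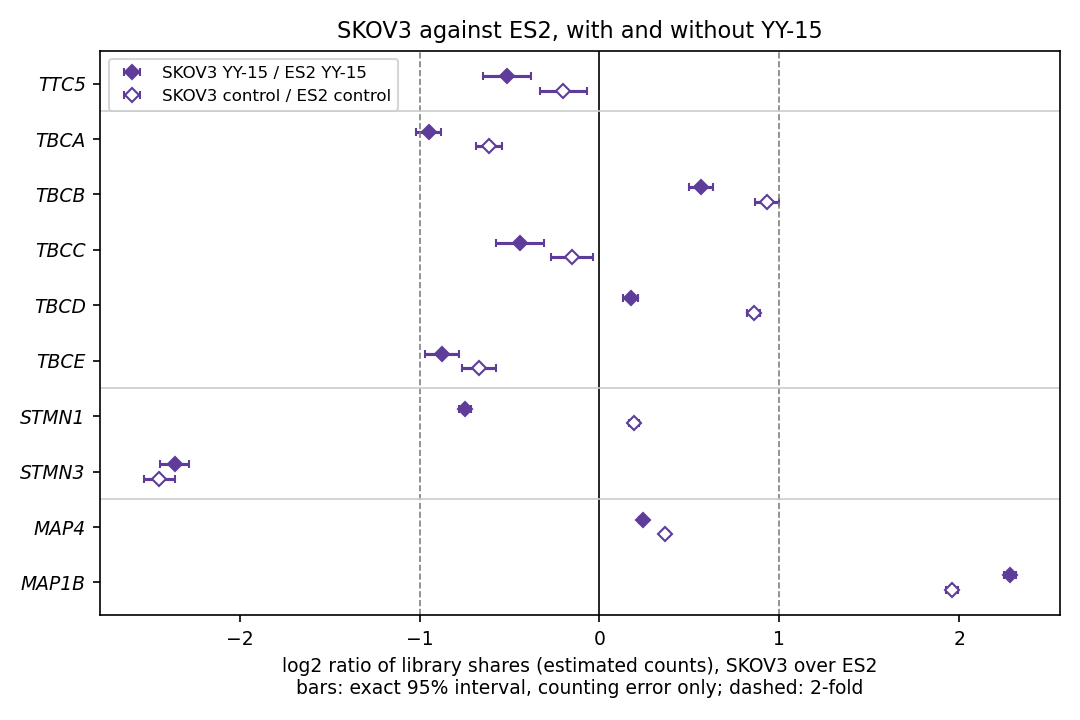
Log2 ratio of library shares from estimated counts, SKOV3 over ES2, between the YY-15 libraries (filled) and between the control libraries (open), with exact 95% intervals for counting error. STMN3 lies beyond 2-fold on the left (-2.36 and -2.45) and MAP1B on the right (2.28 between the YY-15 libraries), and STMN1 lies on opposite sides of 0 (-0.75 and 0.19).

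Levels of different genes depend on the length used. For the 9319 genes with over 500 counts in every library, counts and FPKM implied a length that differed between libraries by a median factor of 1.004, so a fixed length per gene was used. Its median ratio to the union of all exons in GENCODE 29 was 1.060, but TBCD had 24481 bases against a union of 13546, so its FPKM is low for its counts. It was 6.69 times the main coding transcript for TBCE, 4.83 times for TBCA, 3.86 times for STMN1 and 2.15 times for TTC5. Per kilobase of main transcript and 1000000 counts, TTC5 had 2.62, 2.92, 3.74 and 3.35 in SKOV3 YY-15, SKOV3 control, ES2 YY-15 and ES2 control. It stayed the lowest of the 10 genes in each. On this scale TBCE had 10.6, 11.2, 19.5 and 17.8 in the same order. STMN1 was the highest in SKOV3 control (192), ES2 YY-15 (167) and ES2 control (168), and MAP4 in SKOV3 YY-15 (114, against 99.8 for STMN1). MAP1B was the highest by FPKM in SKOV3 YY-15 (44.0) but not on this scale (48.7).

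Of 12 listed alpha- and beta-tubulin genes, the products that these factors handle, 11 passed the filter in SKOV3 and 9 in ES2. All 11 were lower in SKOV3 YY-15 (median -0.99), where 47.3% of all genes past the filter were lower. Of the 11 tubulin genes, 4 reached the 2-fold size, where 1.31% of all genes past the filter did so in that direction. All 9 were slightly higher in ES2 YY-15 (median 0.26), where 45.7% of all genes past the filter were higher. Of the 9, 0 reached the 2-fold size. TUBA8 fell short of the filter in both lines, and TUBA4A and TUBB4A did in ES2. Their ES2 ratios were -0.02, 0.04 and -0.05, from at most 35 estimated counts per library. The SKOV3 ratio of TUBA8 was 0.03, from 8 counts with YY-15 and 1 in the control. TUBB4B was at 125 FPKM in SKOV3 YY-15 and 340 FPKM in SKOV3 control (-1.44), and at 314 FPKM in ES2 YY-15 and 258 FPKM in ES2 control (0.29). TUBA1B was at 272 FPKM in SKOV3 YY-15 and 682 FPKM in SKOV3 control (-1.32), and at 585 FPKM in ES2 YY-15 and 505 FPKM in ES2 control (0.21). TUBB3, with ratios of -1.17 in SKOV3 and 0.33 in ES2, is uncertain because ENSG00000198211 overlaps it on the same strand. STMN1 lay close to the tubulin median in SKOV3. TTC5, TBCA, TBCE, MAP4 and MAP1B lay within 0.12 of 0 there.

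Upstream in the folding route, all 8 TRiC subunit genes were below 0 in SKOV3, with a median of -0.37 and 0 at least 2-fold lower. Of all genes past the filter, 47.3% were below 0 there. CCT3 was at 45.3 FPKM in SKOV3 YY-15 and 72.5 FPKM in SKOV3 control (-0.67), CCT6A had a ratio of -0.66 and TCP1 -0.56. In ES2, 5 of 8 were above 0, with a median of 0.03, where 45.7% of all genes past the filter were above 0. Among 8 other folding route genes (prefoldin subunits, the GTPase gene ARL2 and TBCEL), the SKOV3 median was 0.09 and 1 was at least 2-fold higher. That gene was PFDN2, a prefoldin subunit, at 58.4 FPKM in SKOV3 YY-15 and 25.9 FPKM in SKOV3 control, a log2 ratio of 1.14 [1.08 to 1.28]. The prefoldin subunit gene VBP1 went the other way, at 17.7 FPKM in SKOV3 YY-15 and 29.7 FPKM in SKOV3 control (-0.71). TBCEL, related to TBCE in sequence, had ratios of 0.48 in SKOV3 and -0.39 in ES2. The ES2 median of these 8 genes was 0.09, with 0 at least 2-fold different.

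The remaining lists of microtubule genes held 0 genes at least 2-fold different in either line. Among other structural microtubule-associated proteins, the median was 0.06 over 11 genes in SKOV3 and -0.05 over 8 in ES2. EML2 had ratios of 0.53 in SKOV3 and 0.23 in ES2, MAP9 0.06 and -0.52, and MAP7D1 0.27 and 0.21. MAP7D2 was near the filter, at 0.287 FPKM in SKOV3 YY-15 and 1.18 FPKM in SKOV3 control. Its SKOV3 ratio was -0.76 [-2.39 to -1.68], so by library share it was past 2-fold. MARK kinases, which phosphorylate MAP4 and related proteins, had a median of 0.48 over 3 genes in SKOV3 and 0.09 over 4 in ES2. MARK3 was at 0.51 in SKOV3 and 0.03 in ES2, MARK2 at 0.21 and 0.15, and MARK4, at 0.48 and 0.42, is uncertain because other measured genes overlap it on the same strand. Plus-end and minus-end proteins had a median of 0.19 over 11 genes in SKOV3 and -0.12 over 10 in ES2. Among them MAPRE3 had 0.69 in SKOV3 and 0.18 in ES2, CLIP2 0.60 and 0.12, and MAPRE1 -0.50 and -0.08.

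Severing enzymes were below 0 for 6 of 7 genes in each line, with a median of -0.29 in SKOV3 and -0.23 in ES2. Of all genes past the filter, 47.3% were below 0 in SKOV3 and 54.3% in ES2. KATNA1 was close to 0 in both lines, at -0.05 and -0.08. FIGN had -0.58 in SKOV3 and -0.11 in ES2, KATNAL1 -0.38 and -0.44, and KATNBL1 0.32 and -0.35. Enzymes that modify tubulin had a median of -0.04 over 11 genes in SKOV3 and 0.02 over 11 in ES2, with AGTPBP1, a deglutamylase, at 0.37 and -0.30, and the deacetylase HDAC6 at -0.31 and -0.06. ATAT1, at -0.17 and -0.27, is uncertain through a same-strand overlap. The gamma-tubulin complex had a median of -0.19 over 11 genes in SKOV3 and -0.02 over 11 in ES2. TUBG1 was at -0.36 in SKOV3 and 0.29 in ES2, TUBG2 at 0.41 and -0.16, and TUBGCP5 at -0.31 and -0.22.

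**Figure D5:**
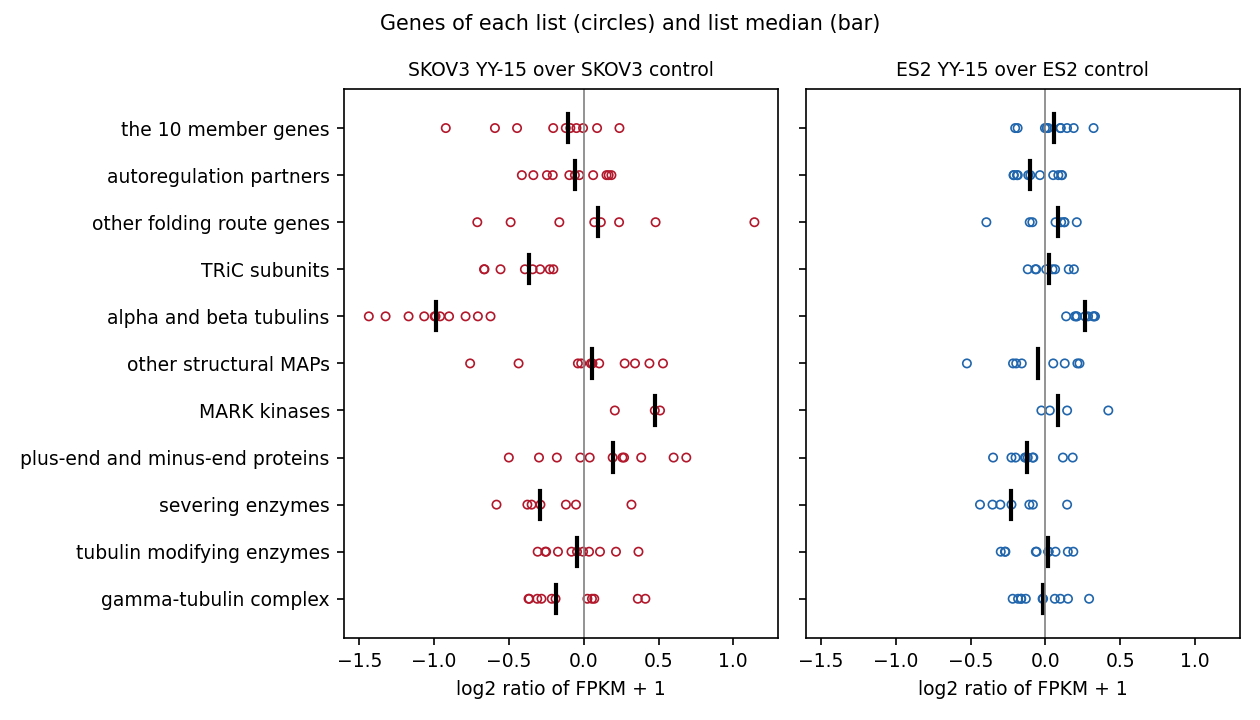
Log2 ratio of FPKM + 1, YY-15 over control, of each gene (circles) in the 10 member genes and 10 other lists, with the list median as a bar, in SKOV3 (left) and ES2 (right). Tubulin genes form the lowest list in SKOV3 (median -0.99) and the highest in ES2 (0.26), while the 10 genes spread around 0 (-0.10 and 0.06).

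STMN3 and MAP1B had the widest ranges over the 4 libraries. Among 8429 other named genes reaching 5 FPKM in any library, the patterns nearest to STMN3 were those of ODC1, GAMT, VPS9D1-AS1 and QSOX1. Their Euclidean distances on centred log2(FPKM + 1) were 0.08 to 0.12. The patterns nearest to MAP1B were those of YJEFN3, SH3GL3, CPNE2 and TOX, at 0.01 to 0.11. YJEFN3, SH3GL3 and TOX reached 5 FPKM only in SKOV3 and were under 1 FPKM in both ES2 libraries. VPS9D1-AS1 reached 5 FPKM only in ES2. At such low values the added 1 sets much of the pattern, so a small distance does not mean an equal fold. YJEFN3 was at 5.11 FPKM in SKOV3 YY-15 and 0.378 FPKM in ES2 YY-15, against 44.0 and 9.08 FPKM for MAP1B. VPS9D1-AS1 is an antisense gene, whose reads are uncertain where counting ignores strand. The likeness is over 4 libraries only.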

How the data were processed

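The deposited table of the whole series holds, per the file headers, an FPKM and a count for each gene in 4 libraries, 1 per group. How the authors scaled FPKM was checked from the values, which fit a fixed length per gene. Per the submitters' processing notes, the authors named StringTie 2.1.6, HISAT2 2.2.1 and cutadapt 1.9, and also edgeR and DESeq2. The notes do not state which step each served. Those notes name mm10, a mouse build, but the gene identifiers are human, and 35566 of the 35576 found in GENCODE 29 overlapped the same gene there, so coordinates are given as GRCh38. The deposited counts are treated as estimated counts, because 210 to 229 genes in each library pair a single count (1) with a positive FPKM below 0.001. Per the labels' protocols, libraries were poly(A)-selected and strand-marked with dUTP. The sources used here do not say if strand was used in counting.

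All 8 columns of values were used, each assigned through the line and the dose or control named in its heading. Differences were computed with Python 3.11.15, numpy 2.4.6, pandas 2.3.3 and scipy 1.17.1 as log2 ratios of FPKM with a pseudocount of 1, over genes at 1 FPKM or more in a library compared. No model was fitted, since with 1 library per group these differences leave no residual degrees of freedom. A shared effect of YY-15 with line as a block would leave a single one, and no such fit was made. The calculation was tested on simulated counts. The members, lists and motifs were chosen with earlier results of these data known. The text names all 10 members and, per list, up to 3 genes with the largest mean absolute ratio over both lines. Only genes past the filter in both lines were ranked. CNOT11 and SCAPER are also described as partners of TTC5, and some genes short of the filter in a line are named where they limit a count. A gene is called uncertain where a measured gene on the same strand overlaps it at 10% or more of its highest FPKM. Genes on the opposite strand do not enter this rule. There POLR2I overlaps TBCB, B3GNTL1 overlaps TBCD and B3GALNT2 overlaps TBCE. Over the 4 libraries they held 11.8% to 22.9%, 6.84% to 27.2% and 90.2% to 234% of the member's counts. If counting ignored strand, the values of these 3 members are uncertain through them too. The main transcript is the longest principal coding transcript in GENCODE 29, and all 10 members matched a RefSeq promoter. Other settings tried were a pseudocount of 0.1 or 5, a filter at 5 FPKM or none, TPM (FPKM rescaled to sum to 1000000), centring on the median, estimated counts as CPM, correction for length and GC content by local regression (span 0.3), sizes of 1.5-fold and 3-fold, and summing entries that share a name. Adding same-strand overlapping genes was chosen after the data were seen.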

Additional observations from a re-analysis of the deposited data

Results flagged for a closer look

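TTC5, TBCB and MAP1B had YY-15 over control ratios of opposite sign in the lines, with counting intervals that excluded 0 in both. TTC5 was at -0.0894 in SKOV3 and 0.10 in ES2. TBCB was at -0.20 in SKOV3 and 0.15 in ES2. MAP1B was at 0.0894 in SKOV3 and -0.20 in ES2. With 1 library per group the difference between lines was not tested, and the intervals hold no spread between cultures. Corrected for length and GC content, the ES2 values were -0.03 for MAP1B and 0.05 for TBCB, both nearer to 0. With overlapping counts added, the TTC5 interval in ES2 reached 0.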

How the results depend on the processing

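No paired analysis was possible because within a line the groups compared share 1 replicate number only, which leaves 1 pair and no spread between pairs. A fit of a YY-15 effect shared by both lines, with line as a block, could have been made with a single residual degree of freedom and was not made. Leaving out a replicate would empty a group. Every alternative kept the counts of 0 genes at least 2-fold different within SKOV3 and within ES2, except the 1.5-fold size, where 2 were lower in SKOV3 and 2 in the SKOV3 minus ES2 difference. Between the control lines, the count higher in SKOV3 was 2 after rescaling to TPM and 3 at 1.5-fold, against 1. Between the YY-15 lines, the count lower in SKOV3 was 2 after centring and 4 at 1.5-fold, against 1. The median over the 10 genes between the control lines was 0.27 with a filter at 5 FPKM, which leaves 8 genes, and 0.13 as TPM, against 0.04. Between the YY-15 lines it was -0.46 and -0.19 with pseudocounts of 0.1 and 5, -0.13 with the filter at 5 FPKM, -0.25 as TPM, -0.48 centred and -0.45 as CPM, against -0.35. Of 590 single-gene values under alternatives, 118 were counted as moved from the main value and 0 turned a 2-fold difference round. A moved value can still lie inside the counting interval. TBCD in SKOV3, for example, was at -0.66 with a pseudocount of 0.1, inside -0.70 to -0.62. Counts over all genes ranged from 89 to 1863 in SKOV3 (main 395), 21 to 878 in ES2 (103), 1405 to 7871 between controls (4028), 1584 to 8590 between YY-15 libraries (4510) and 144 to 2979 for the difference (635). The highest of each came from TPM, which multiplies FPKM by 3.72 to 4.29 and so gives the pseudocount of 1 and the filter less weight.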
